A study of Homo sapiens with 9 samples.

Results

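The regions described are the autosomal common fragile site (CFS) bands of the study, other than 3p14.2, 14q24.1, 16q23 and 22q12.2 and outside the terminal 5 Mb of each chromosome. CFS bands are cytogenetic bands in which chromosomes of cultured cells break under mild replication stress. Which bands are CFS bands was taken from the study, without a check of each site's type. The study lists 111 of them, 108 on autosomes, of which 104 were taken by name and position alone. One of these, 10q26.3, lies wholly within the terminal 5 Mb, so 103 bands with 658 Mb of assembled sequence were left, 23.9% of the autosomes. Bands 5q15 and 5q21 overlap on the list, and peaks in the shared stretch counted for both bands and a single time in pooled values. Of the 103 bands, 98 held at least 1 Mb, and 73 were long enough for at least 5 expected peaks in the smaller untreated list and were ranked.

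Phosphorylated histone H2AX (γH2AX), which marks chromatin around stalled forks and double-strand breaks, was mapped by ChIP-seq in a human lymphoblastoid B-cell line. The labels name the line GM09027A and the study's methods GM07027. The 4 conditions, with 2 independent ChIP experiments each, were untreated cells and cells treated for 24 h with 0.1 µg/mL aphidicolin (APH), 2 mM hydroxyurea (HU) or 200 µM methyl methanesulfonate (MMS). All come from 1 line, and peak lists cannot show whether the cells carry B-cell markers. The lists held 4797 and 4343 peaks for untreated cells, 17680 and 14016 for APH, 79950 and 69977 for HU, and 12216 and 10488 for MMS. Because the lists differ so much in length, each band is given as a ratio of observed peaks to those expected from its assembled length and the list's autosomal peaks. A ratio of 1 means the density of the autosomes as a whole. The lists carry no read totals, so the sequencing depth behind them is unknown, and fewer cells with γH2AX at a band cannot be told apart from less γH2AX per cell.

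Aphidicolin inhibits the replicative DNA polymerases, hydroxyurea depletes deoxynucleotides by inhibiting ribonucleotide reductase, and methyl methanesulfonate alkylates bases and blocks the fork at the lesion. Classical CFSs are scored by cytogenetics after low doses of aphidicolin. They often hold very large genes with few replication origins, replicate late, and differ between cell types in how often they break. A G-band spans megabases, so the fragile core of a site can be a small part of its band.

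The bands are shown at sequence level by 200 bp around the middle of the overlap of a peak of each replicate, in the highest band of untreated cells and of cells after APH. The pair of overlapping peaks taken was the one with the highest mean fold enrichment and without an annotated exon in these bases. The peaks shared 272 bp in 22q13 and 93 bp in 16q22, where the stretch lies at the edges of both peaks. Sequences are the plus strand of GRCh38, with CG dinucleotides in capitals because the ratio of a band followed its base composition, as described further on. In 22q13 in untreated cells the stretch lies within CBX7, a Polycomb gene, at chr22:39142620-39142819, with fold enrichments of 2.66 and 2.83 in the replicates. In 16q22 after APH it lies in no protein-coding or lncRNA gene, 38.4 kb from the start of SMPD3, at chr16:68486795-68486994, with 2.65 and 3.01.
22q13, untreated: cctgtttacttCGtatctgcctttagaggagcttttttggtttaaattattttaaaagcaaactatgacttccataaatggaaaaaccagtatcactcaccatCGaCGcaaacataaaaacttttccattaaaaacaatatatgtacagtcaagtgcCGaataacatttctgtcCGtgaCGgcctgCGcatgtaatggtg
16q22, APH: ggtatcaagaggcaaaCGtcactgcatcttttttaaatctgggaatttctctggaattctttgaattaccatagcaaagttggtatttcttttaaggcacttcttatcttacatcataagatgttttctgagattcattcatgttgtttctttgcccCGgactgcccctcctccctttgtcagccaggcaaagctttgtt

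The GC content of these stretches was 36.5% and 39.5% in that order, and the longest run of A or of T was 6 bases in both. Over all peaks in the bands, the central 300 bp had a median GC content of 44% to 47.7% in the 8 lists, against 40% for all 300 bp tiles of the bands. Runs of at least 10 A or 10 T, a sequence known to slow polymerases, were in 10.1% of the tiles. They were in 11.3% and 11.1% of the HU peaks, in 6.03% and 6.12% of the MMS peaks, in 4.74% and 5.13% of the APH peaks, and in 3.58% and 5.61% of the untreated peaks.

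Over all bands together, untreated cells had fewer peaks than their length gave and HU-treated cells had more. The untreated lists had 921 and 802 peaks in the bands, pooled ratios of 0.807 and 0.776. APH gave 3862 and 3060 peaks and ratios of 0.916 and 0.915. MMS gave 2951 and 2485 peaks and ratios of 1.01 and 0.995, and HU gave 20511 and 17853 peaks and ratios of 1.08 and 1.07. The 4 conditions did not overlap. The mean ratio was 0.997 over the 6 treated lists and 0.792 over the 2 untreated lists, a difference of 0.205 (exact permutation of the lists, two-sided p = 0.0714, as low as 6 against 2 lists allow). For each treatment alone the same exact permutation test, with 2 lists against 2, cannot go below p = 0.333, and each of the 3 gave this value, with differences of 0.124 for APH, 0.281 for HU and 0.212 for MMS.

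The terminal 5 Mb of the chromosomes, which are not part of the bands, moved with this order. They are 7.0% of the assembled autosomes and held 30.4% and 30.5% of the untreated peaks, 18.0% and 18.3% after APH, 14.5% and 13.0% after MMS and 7.77% and 8.07% after HU. When the expectation was taken from the peaks outside these ends alone, the pooled ratios were 1.08 and 1.04 untreated, 1.04 and 1.04 after APH, 1.08 and 1.08 after HU and 1.10 and 1.06 after MMS. The difference between treated and untreated lists was then 0.0106 (exact permutation test, two-sided, p = 0.5), and that of APH turned to -0.0182.

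**Figure D1:**
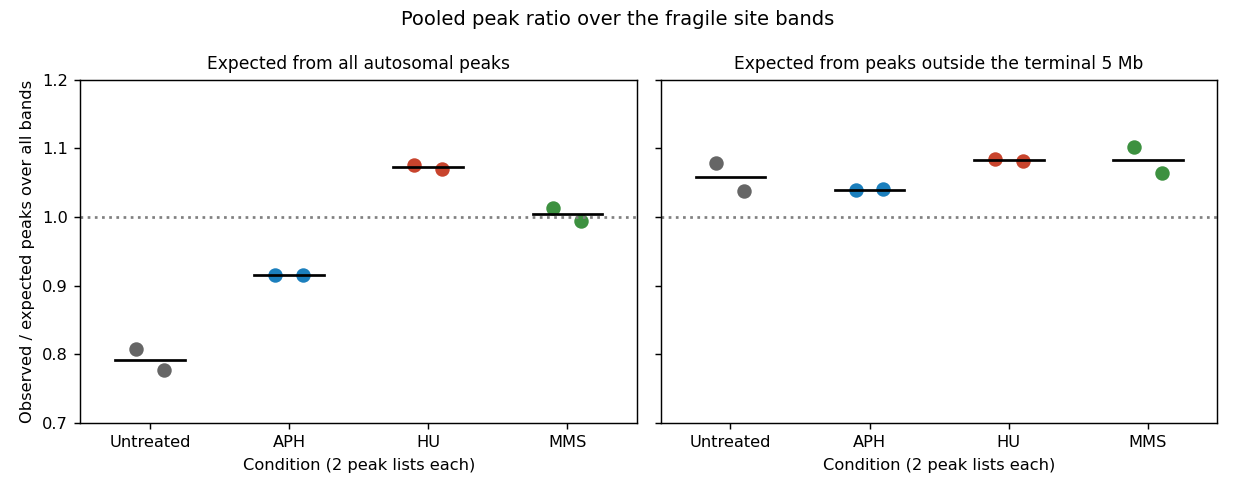
Pooled ratio of observed to expected peaks over all bands in each list (points), with the mean of the 2 lists of a condition (bars), for both ways of taking the expectation. The vertical axis is the ratio without unit and does not start at 0, and the dotted line marks 1. With all autosomal peaks the conditions lie apart from 0.776 to 1.08, and with peaks outside the chromosome ends all lists lie between 1.04 and 1.10.

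The bands held slightly more peaks per assembled base than the rest of the autosomes outside the ends, in every list. The ratio of the bands to this rest was 1.11 and 1.05 untreated, 1.05 and 1.06 after APH, 1.12 and 1.11 after HU, and 1.14 and 1.09 after MMS. The mean log2 ratio was 0.13 ± 0.046 (SD, n = 8 lists), 1.09-fold, above 0 in 8 of 8 lists (exact sign-change test over lists, p = 0.00781 on both sides, the lowest value possible with 8 lists). With peaks of a fold enrichment of at least 3 alone it was 0.08, above 0 in 6 of 8 lists, p = 0.375 in the same exact test. The lists share 1 genome and 1 cell line, and the series holds 1 input sample. This p thus covers the spread between the 8 lists, that between conditions included. The ranked bands had a median GC content of 40.5% and 5.49 protein-coding gene starts per Mb. In 5 Mb windows of this rest the medians were 39.7% and 4.6. The part of this difference in the excess was not tested.

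Single bands differed from each other far more than the bands did from the rest. Mean ratios of the 73 ranked bands ran from 0 to 2.94 untreated, 0 to 3.11 after APH, 0 to 3.91 after HU and 0.0466 to 2.66 after MMS. Their medians were 0.638, 0.831, 0.676 and 0.897. In the 5 Mb windows of the rest, cut to the same least length, the medians were 0.411, 0.514, 0.547 and 0.621. The highest windows reached 4.69, 3.25, 5.14 and 3.39. No window is longer than 5 Mb, while ranked bands reach 21.7 Mb, so these values compare regions of unlike size. In all 8 lists 17 ranked bands lay above 1 and 31 below 1, while 25 changed sides. Counts over all 8 lists were not taken for the windows.

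The highest bands were nearly the same in every condition. Band 10q22.1 (FRA10D, chr10:68800001-73100000) had 20 and 17 peaks untreated, 79 and 48 after APH, 475 and 438 after HU and 57 and 38 after MMS. Its ratios were 2.6 ± 0.12 (SD, n = 2), 2.53 ± 0.47, 3.91 ± 0.14 and 2.66 ± 0.47 in that order, the highest of all ranked bands after HU and MMS. Band 22q13 was highest in untreated cells, with ratios of 3.08 and 2.81, and stood at 2.72 and 2.42 after APH, 3.82 ± 0.25 (SD, n = 2) after HU, and 2.78 and 1.68 after MMS. Band 1p36.1 (FRA1A) had ratios of 3.32 and 2.08, 2.69 and 2.11, 3.53 and 3.93, and 2.97 and 2.24. Its replicates overlapped between untreated, APH and MMS, and only the HU lists stood above the rest. Band 11q13 (FRA11A) was second after MMS at 2.66 ± 0.30 and reached 3.29 ± 0.21 after HU. After MMS the spread between replicates was larger than the distance between these leading bands.

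Band 16q22 (FRA16C, chr16:66600001-74100000) led after APH. Its ratios were 3.11 ± 0.13 (SD, n = 2) after APH, 3.15 and 3.19 after HU, 2.69 and 2.38 untreated and 2.44 and 2.21 after MMS. Within it, the gene with the most APH peaks was ZFHX3, a large homeobox transcription factor gene at chr16:72782885-73891871, with 51 of the 267 APH peaks of the band. ZFHX3 had 31 and 20 peaks in the APH lists, 2 and 3 in the HU lists, 10 and 8 in the MMS lists and 1 in each untreated list. The band ratios after APH and HU overlapped, while the APH lists held more peaks in this gene than the longer HU lists. In 10q22.1 the leading gene after both HU and MMS was CDH23, a cadherin gene of inner-ear hair cells, with 90 of the 913 HU peaks and 11 of the 95 MMS peaks. In 22q13 in untreated cells it was MEI1, a gene needed for meiotic breaks, with 5 of 84 peaks. The ratio stayed above 2 in all 8 lists in 4 bands, namely 1p36.1, 10q22.1, 11q13 and 16q22.

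The lowest bands were nearly empty. Band 5p14 (FRA5E, chr5:18400001-28900000), 10.5 Mb long, had no peak in the untreated, APH and HU lists and 2 in each MMS list. After HU 304 and 266 peaks were expected there. With 3 peaks taken as the limit for a count of 0 over both HU lists, its share of peaks came out 8.81-fold higher after MMS. The 4 MMS peaks entered this value without their own counting error, so it is not a lower bound. Band 11p14 (FRA11D) had 1 and 3 peaks untreated, 3 and 4 after APH, 1 and 2 after HU and 4 and 7 after MMS. Band 1q31 (FRA1K) had 3 and 0, 3 and 2, 34 and 27, and 6 and 1. Bands 2q22.3 and 2q32.1 had no untreated peak and ratios of 0.0405 ± 0.0078 and 0.0566 ± 0.019 after HU (SD, n = 2). Band 8p22 had ratios of 0.0135 ± 0.019 after HU and 0.0794 ± 0.062 after MMS. In 14 ranked bands the ratio was under 0.5 in all 8 lists. Such low ratios were not particular to the bands. Under 0.5 in both lists were 41.1% of the ranked bands untreated, 31.5% after APH, 35.6% after HU and 23.3% after MMS. In the windows of the rest it was 47.1%, 42.7%, 47.9% and 36.3%.

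Of the 103 bands, 3 had no peak in any list. One is 1q12, with 0.0961 Mb of assembled sequence. In 9p12, with 1.00 Mb, 29.0 and 25.4 peaks were expected in the HU lists, so that 3 peaks as a limit allow a ratio of up to 0.0552. In 16p13.11, with 2.00 Mb, 58.0 and 50.7 were expected, which allows up to 0.0276. The authors removed poorly mapped reads and blacklisted regions, while the expectation counts every assembled base. How much of these 3 bands could give peaks at all was not tested.

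**Figure D2:**
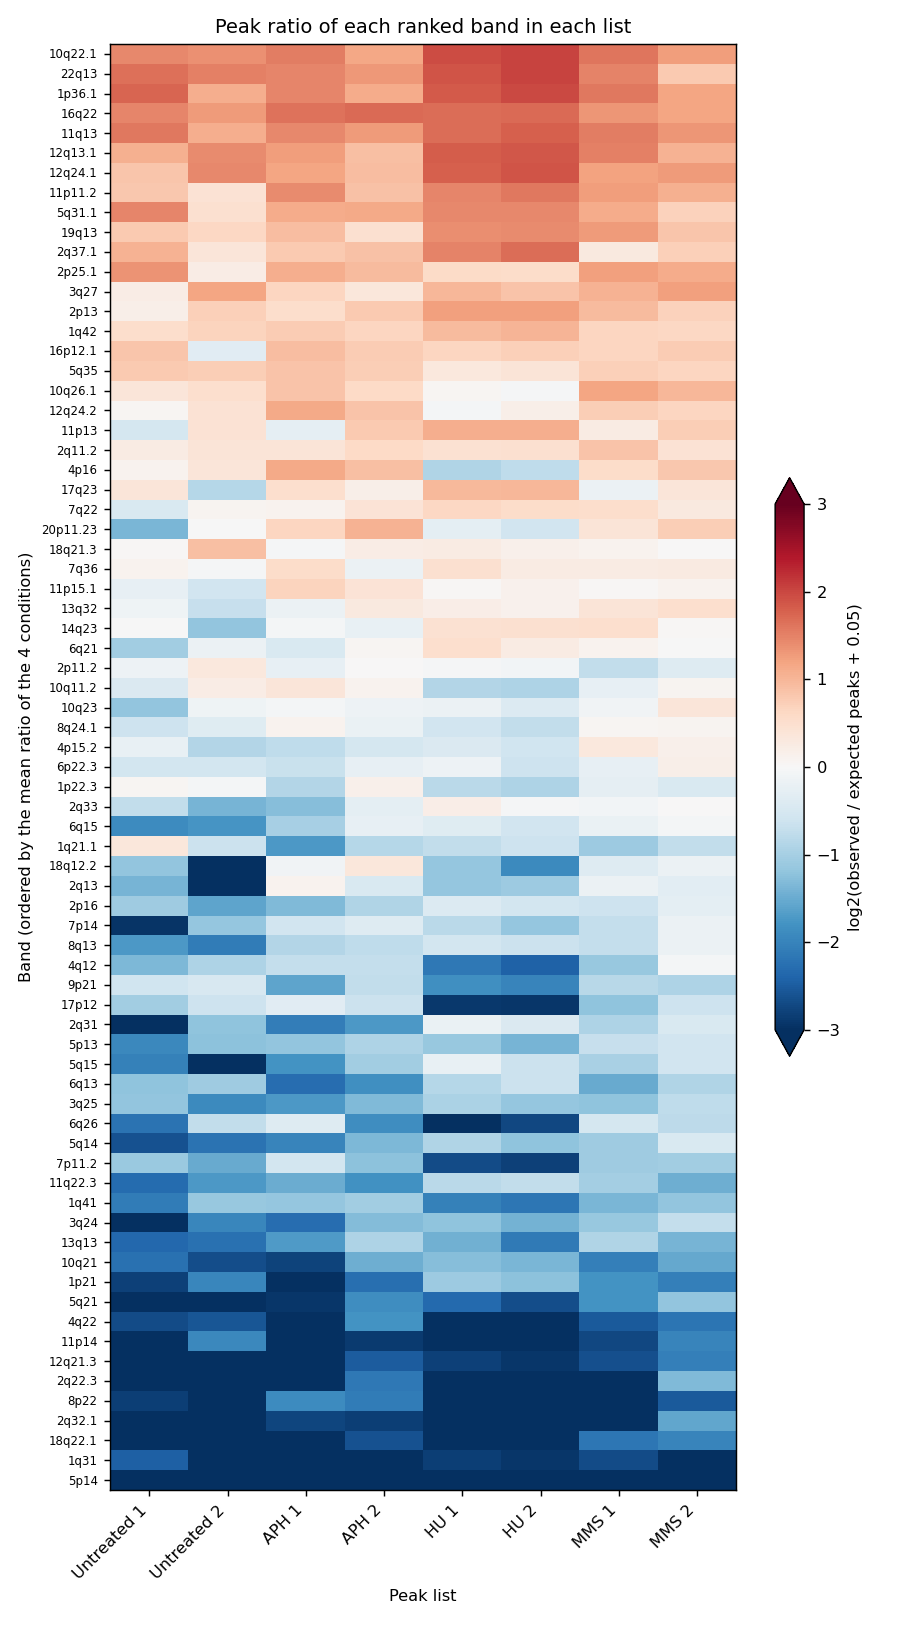
Ratio of observed to expected peaks in the 73 ranked bands (lines, from the highest to the lowest mean) in the 8 lists (columns), as log2(ratio + 0.05), with red above and blue below 0. The same bands are red at the top and blue at the bottom in all lists, from 10q22.1 down to 5p14, and lists differ mostly in the middle.

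The ratio of a band went with its base composition and gene density, which the choice of bands did not use. Over the 73 ranked bands the Spearman correlation between GC content and the mean ratio was 0.90 untreated, 0.94 after APH, 0.79 after HU and 0.90 after MMS. With protein-coding gene starts per Mb it was 0.85, 0.84, 0.84 and 0.82. With the share of the band in genes over 500 kb it was -0.50, -0.45, -0.44 and -0.44. These are descriptions over bands of 1 genome that share lists, and all of them were seen in the 361 windows of the rest too, where the correlation with GC content was 0.86, 0.90, 0.80 and 0.87. Genes over 500 kb were the exception in size, with correlations between -0.17 and -0.13 in the windows. The 4 bands above 2 in all lists had a median GC content of 47.5% and 16.2 coding starts per Mb, and the 14 bands under 0.5 in all lists had 36.6% and 2.6. Their ranges of GC content did not overlap. The part of base composition in the peak numbers was not tested.

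**Figure D3:**
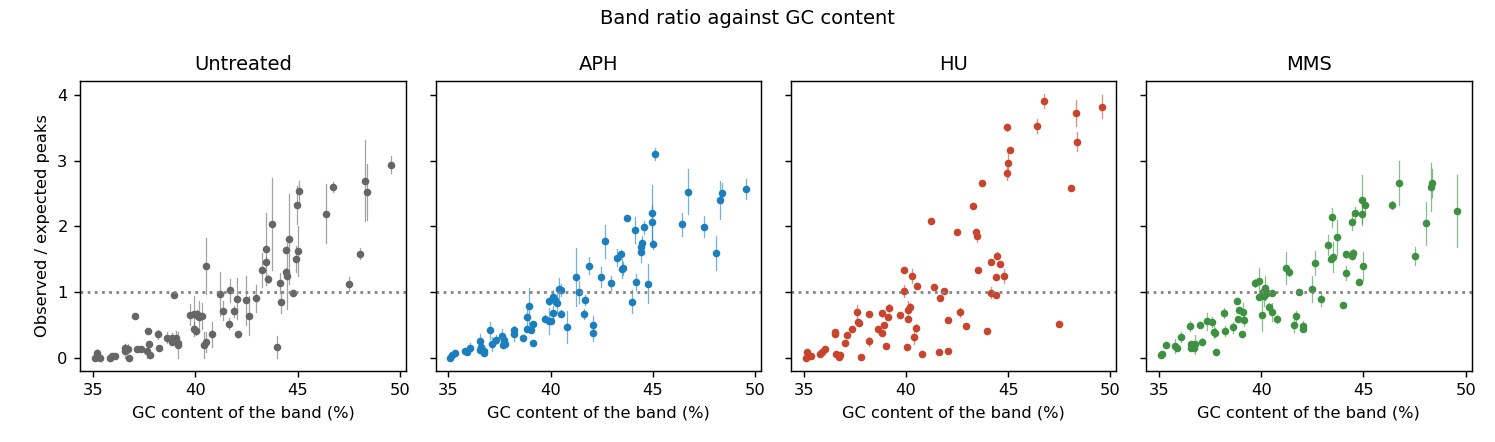
Mean ratio of observed to expected peaks of each ranked band (points, with thin lines joining the 2 lists) against its GC content in percent, one panel per condition. The ratio climbs with GC content in all 4 panels, from 35.1% to 49.6%, and the 4 bands above 2 in all lists all lie above 45%.

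Replicates placed peaks in the same bands but mostly not at the same positions. The Spearman correlation between the band ratios of the 2 lists was 0.87 untreated, 0.95 after APH, 0.99 after HU and 0.95 after MMS over 73 bands. The median difference between replicates was 0.55, 0.34, 0.13 and 0.33 on the log2(ratio + 0.05) scale. Of the band peaks of a list, 4.56% and 5.24% overlapped a peak of the other list in untreated cells, 5.72% and 7.22% after APH and 4.10% and 4.91% after MMS. After HU 43.0% and 50.8% did. The rest of the autosomes gave much the same values, from 4.72% to 8.59% for the 3 other conditions and 43.4% and 51.4% for HU. In the terminal 5 Mb, 41.6% and 51.6% of the untreated peaks were found in the other list. Band ratios outside HU thus rest on peaks of which few were seen at the same place in both lists.

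The HU peaks of the bands were also wider, and far more of them passed a limit on the caller's q-value. A q-value of at most 0.05 was reached by 78.6% and 60.0% of the HU peaks in the bands and by 0.0805% to 0.882% in the 6 other lists. This was not particular to the bands, since 78.2% and 60.2% of the HU peaks in the rest reached it. The median width was 766 and 742 bp after HU and 494 to 543 bp in the other lists. The median fold enrichment, 2.54 to 2.77, differed little between lists and between bands and rest.

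The ranking of bands was shared between treatments, with APH and MMS closest when all peaks were counted. With a fold enrichment of 3 or more the order changed. The correlation was then 0.66 between APH and MMS, 0.72 between APH and HU and 0.80 between HU and MMS. Replicates agreed at 0.41 for APH and 0.33 for MMS at that limit. The values that follow are for all peaks. Over the 73 bands the correlation of the mean ratios was 0.96 between APH and MMS, 0.90 between HU and MMS and 0.85 between APH and HU. Against untreated cells it was 0.92 for APH, 0.91 for MMS and 0.87 for HU. Between single lists of 2 conditions the lowest value was 0.81 and the highest 0.94. The untreated replicates themselves gave 0.87. The 3 bands whose rank differed most were 4p16, from 10 after APH to 45 after HU, 18q12.2, from 29 to 56, and 2q31, from 60 to 33.

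Which bands held a larger or smaller share of a list's peaks in 1 condition than in another was tested by limma-voom on the number of peaks per region, with Benjamini-Hochberg adjustment over 516 regions of at least 1 Mb, 98 of them bands described here. A call needed an adjusted p under 0.05 and more than 3 peaks over both lists of at least 1 of the conditions compared. The requirement on the number of peaks was set after a test on simulated data and the first calls had been seen. It takes away 5 calls of lower bands between HU and untreated, 3 between HU and APH and 2 between HU and MMS. Among these are 9p12 and 16p13.11, called lower in all 3 without a peak in any list, since a prior count of 0.5 is a smaller share of a longer list. The same prior count enters the log2 changes of other bands with few peaks, for which the ratio of shares is given with its counting interval. With a prior count in proportion to the list, an alternative chosen after seeing the data, fewer bands were called in each comparison with HU, as given beside each.

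HU against APH gave the most calls. Among all regions 22.3% were higher and 23.8% lower after HU. Among the 98 bands 25 were higher (25.5%) and 24 lower (24.5%), close to the whole. Relative to peaks outside the chromosome ends 13 bands were higher and 27 lower, and this scaling moved the median of all regions from 0.04 to -0.13 on the log2 scale. A fit of log2 ratios with an intensity trend called 5 higher and 14 lower, a prior count in proportion to the list 14 and 15, and peaks of a fold enrichment of 3 or more 6 and 9. The bands higher after HU had a median of 10.6 coding starts per Mb, against 4.94 in the lower bands and 4.34 in those not called, while the median GC content was 41.2%, 42.3% and 40.1%. Leaving out 1 library brought the calls to 8 higher and 19 lower (APH replicate 1), 13 and 19 (APH replicate 2), 9 and 17 (HU replicate 1) or 12 and 18 (HU replicate 2).

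Band 8q24.3 (FRA8D), of which the 1.24 Mb at chr8:138900001-140138636 lie outside the terminal 5 Mb, had the largest fitted log2 change between HU and APH. It had 1 peak in each untreated list, 23 and 16 after APH, 2 and 1 after HU, and 5 and 6 after MMS. Both APH lists stood above every other list, the much longer HU lists included. Its share of peaks was 61.5 times as high after APH as after HU (95% exact interval 19.6 to 311, counting error only, 39 against 3 peaks), and limma-voom gave an adjusted p of 3.47e-05. Of the 39 APH peaks 14 lay in TRAPPC9, a subunit gene of a membrane-trafficking complex, 10 and 4 in the lists, against 1 in each HU list.

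Band 9q22.1 (FRA9D), 1.40 Mb, had 9 and 5 peaks after APH, 1 and 0 after HU, 2 and 4 after MMS and 0 and 2 untreated. Its share was 66.2 times as high after APH as after HU (95% exact interval 10.1 to 2801, counting error only), with a limma-voom adjusted p of 6.36e-04, which became 0.0723 with a prior count in proportion to the list. The leading gene, SHC3, an adaptor gene of receptor tyrosine kinases, held 2 of its 14 APH peaks. Band 8p22 (FRA8A) had 9 and 6 peaks after APH and 5 and 0 after HU, a ratio of shares of 14.19 (4.90 to 49.9) and a limma-voom adjusted p of 0.00269. No gene there had more than 2 of the 15 APH peaks, and 3 genes had that number, TRMT9B among them.

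Band 4p16 (FRA4A, chr4:5000001-11300000) had the largest rank change. Its ratios were 2.15 and 1.83 after APH, 1.41 and 1.69 after MMS, 1.02 and 1.23 untreated and 0.487 and 0.544 after HU, on 88 and 86 HU peaks. The HU lists lay below all others, and the APH lists above all others. The log2 change after HU was -1.96 (SE 0.17, limma-voom adjusted p = 3.47e-05) against APH, -1.59 (SE 0.19, adjusted p = 6.97e-04) against MMS and -1.17 (SE 0.29, adjusted p = 0.0161) against untreated. Within the band, the densest 1 Mb was taken for each condition apart. It held 62.6% of the HU peaks (from chr4:6112388) and 35.4% of the APH peaks (from chr4:9833425), which are different stretches. The value was 52.2% untreated and 38.0% after MMS. Band 18q12.2 (FRA18A) had 25 and 27 peaks after APH, 51 and 24 after HU, 14 in each MMS list and 3 and 0 untreated. Its log2 change between HU and APH was -1.78 (SE 0.37, limma-voom adjusted p = 0.00365), and 86.7% of its HU peaks lay in 1 Mb of the 4.40 Mb band.

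Of the bands called higher after HU than after APH, the largest fitted changes were in 1p21 (FRA1E), 7q21.2 (FRA7E) and 2q31 (FRA2G). Band 1p21, 12.4 Mb long, had 5 and 10 peaks after APH, 13 and 9 after MMS, 2 and 4 untreated and 150 and 118 after HU. Its log2 change from APH was 1.94 (SE 0.39, limma-voom adjusted p = 0.00320). Its HU ratios of 0.417 and 0.375 were above those of all other lists and still under 1. The densest 1 Mb held 63.1% of its HU peaks, and LINC01307, a lncRNA gene, had 15 peaks in each HU list and none in the 6 others. Like the leading genes of the other called bands, LINC01307 was picked for its number of peaks in the condition that was higher. The 6 other lists are also far shorter.

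Band 2q31 had ratios of 0.189 and 0.253 after APH, 0.479 and 0.678 after MMS, 0.815 and 0.693 after HU and 0 and 0.386 untreated. The HU lists lay above all others, though close to the higher MMS list. The log2 change from APH was 1.76 (SE 0.44, limma-voom adjusted p = 0.00879). Its leading gene was TLK1, a kinase gene of chromatin assembly, with 23 and 25 HU peaks, 1 and 3 MMS peaks and none in the APH and untreated lists. Band 7q21.2 had ratios of 0.173 and 0.328 after APH, 1.02 and 1.01 after HU, 0.878 and 1.02 after MMS and 0.320 and 0 untreated, a log2 change from APH of 1.85 (SE 0.45, limma-voom adjusted p = 0.00844). There CDK6, a kinase gene of G1 progression, had 6 and 3 HU peaks and 0 and 5 MMS peaks. With a fold enrichment of 3 or more the change of 7q21.2 turned to -0.81 and the calls of 1p21 and 2q31 were lost. The APH lists then held 56 and 197 peaks in all bands together, so the fixed prior count enters that change. In the fit with an intensity trend the calls of 1p21 and 2q31 were lost (adjusted p = 0.0651 and 0.262). Without APH replicate 1 those of 7q21.2 and 2q31 were lost (0.0805 and 0.109), and without APH replicate 2 that of 2q31 (0.0553).

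**Figure D4:**
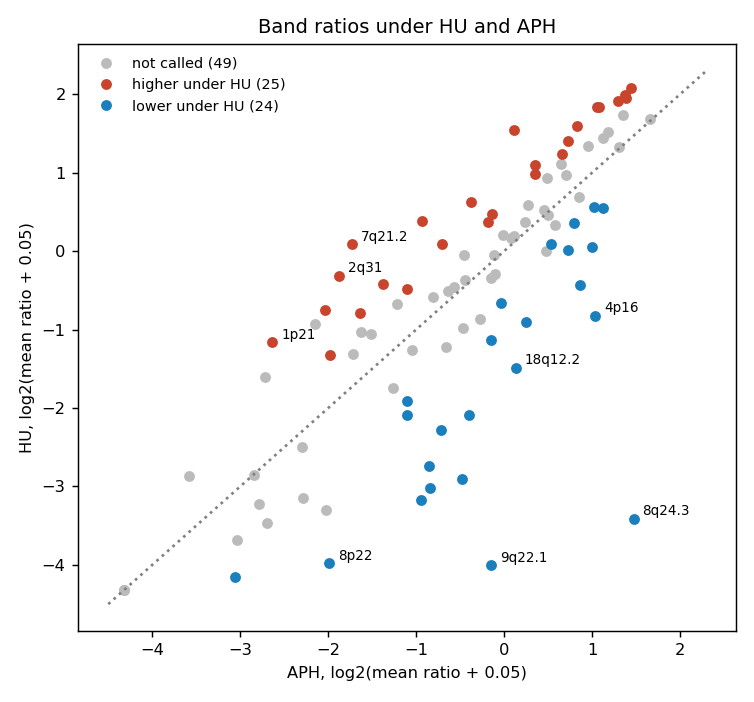
Mean ratio after HU against mean ratio after APH for the 98 tested bands, both as log2(ratio + 0.05), with the dotted line marking equal ratios. Red points are the 25 bands called higher and blue points the 24 called lower after HU by limma-voom, and grey points the 49 not called. The points farthest below the line are 8q24.3 and 9q22.1.

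HU against MMS gave more lower than higher bands. Among all regions 10.1% were higher and 26.7% lower after HU, and among the 98 bands 8 were higher (8.16%) and 28 lower (28.6%). The fit with an intensity trend called 3 and 13, and a prior count in proportion to the list 5 and 16. Relative to peaks outside the chromosome ends the calls were 5 and 31, and with a fold enrichment of 3 or more 1 and 14. Leaving out 1 library brought the calls to 3 higher and 23 lower (HU replicate 1), 2 and 15 (HU replicate 2), 4 and 19 (MMS replicate 1) or 3 and 13 (MMS replicate 2).

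Of the bands called higher after HU than after MMS, the largest log2 changes were in 7p22, 2q37.1 (FRA2J) and 17q23 (FRA17B). The study's list names 7p22 FRA7F, a name it also gives to 7q22. In 7p22 the ratios were 1.03 and 1.56 after MMS and 2.85 and 2.88 after HU, a log2 change of 1.15 (SE 0.32, limma-voom adjusted p = 0.0147). In 2q37.1 they were 1.18 and 1.60 after MMS and 2.76 and 3.17 after HU, a log2 change of 1.10 (SE 0.22, limma-voom adjusted p = 0.00414). In 17q23 they were 0.842 and 1.24 after MMS and 1.91 and 1.93 after HU, a log2 change of 0.90 (SE 0.26, limma-voom adjusted p = 0.0164). In all 3 bands the HU lists stood above every other list. The leading genes were RNF216, a ubiquitin ligase gene with 27 and 15 HU and 4 and 1 MMS peaks, ATG16L1, an autophagy gene with 22 and 24 HU and no MMS peaks, and TEX2, with 19 and 13 HU and 1 and 0 MMS peaks. Without MMS replicate 1 the calls of 7p22 and 17q23 were lost (adjusted p = 0.144 and 0.171), without MMS replicate 2 that of 7p22 (0.0536), and without HU replicate 1 or 2 that of 17q23 (0.0509 and 0.0549).

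Of the bands lower after HU than after MMS, 5p14, 9q22.1 and 8q24.3 had the largest fitted changes, all on few peaks. The value for 5p14 is given above, and CDH12, a cadherin gene, held 1 of its 4 MMS peaks. Band 9q22.1 had 2 and 4 MMS peaks, and its share was 39.7 times as high after MMS as after HU (95% exact interval 4.81 to 1824, counting error only). In 8q24.3, with 5 and 6 MMS peaks, it was 24.2 times as high (6.40 to 135). TRAPPC9 held 6 of the latter, and SPIN1 2 of the former. Without either MMS list 5p14 was left with too few peaks for a call, as was 9q22.1 without MMS replicate 2.

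HU against untreated gave fewer calls, and they rested on both untreated lists. Among all regions 7.95% were higher and 7.17% lower, and among the 98 bands 5 were higher (5.10%) and 8 lower (8.16%). Without untreated replicate 1 there were 0 higher and 1 lower, and without untreated replicate 2 no call was left by limma-voom, with 20 bands at an unadjusted p under 0.05. Without HU replicate 1 or 2 there were 0 and 3 or 2 and 5, and without APH replicate 1 or 2 there were 14 and 9 or 15 and 9. Relative to peaks outside the chromosome ends the split was 2 higher and 13 lower, with the median of all regions moving from 0.29 to -0.12 on the log2 scale. The fit with an intensity trend called 10 and 9, a prior count in proportion to the list 1 and 2, and peaks of a fold enrichment of 3 or more 5 and 27.

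Of the bands called higher after HU than in untreated cells, the largest fitted changes were in 2q31, with 0 and 8 untreated and 312 and 232 HU peaks, in 5q15 (FRA5D), with 2 and 0 against 138 and 88, and in 7q21.2, with 1 and 0 against 53 and 46. Their shares were 4.13 times (95% exact interval 2.08 to 9.62, counting error only), 6.87 times (1.88 to 57.1) and 6.02 times (1.06 to 240.0) as high after HU. The limma-voom adjusted p-values were 0.0268, 0.0242 and 0.0352. With a fold enrichment of 3 or more all 3 fitted log2 changes turned, to -0.24, -2.56 and -2.46. In 5q15 the leading gene was CAST, the gene of the calpain inhibitor calpastatin, with 25 and 14 HU peaks, 3 and 4 MMS peaks and none in the untreated and APH lists. All 3 calls were lost without untreated replicate 1 (adjusted p = 0.277, 0.109 and 0.122), without untreated replicate 2 (0.0560, 0.298 and 0.353) and without HU replicate 1 (0.0560, 0.0546 and 0.0881).

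The 8 bands called lower after HU than in untreated cells were 4p16, 6q26, 7p11.2, 9p21, 10q11.2, 11p14, 17p12 and 20p12.2. Band 17p12 (FRA17A) had ratios of 0.435 and 0.601 untreated, 0.736 and 0.594 after APH, 0.384 and 0.596 after MMS and 0.0846 and 0.0818 after HU. Its HU lists lay below all others, while those of the other conditions overlapped. The log2 changes after HU were -2.71 (SE 0.44, limma-voom adjusted p = 0.00215) against untreated, -2.98 (SE 0.32, adjusted p = 1.16e-04) against APH and -2.51 (SE 0.37, adjusted p = 0.00115) against MMS.

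Of these 8 called bands, the largest fitted falls were in 11p14, 6q26 (FRA6E) and 20p12.2 (FRA20B), with 4 untreated peaks each. Band 6q26 had 1 and 3 untreated and 2 and 9 HU peaks, and 20p12.2 had 2 and 2 against 5 and 6. In both the share was 5.98 times as high in untreated cells (95% exact interval 1.39 to 20.2, counting error only). In 11p14, with 1 and 3 against 1 and 2, it was 21.9 times as high (3.71 to 149.8). JAG1, a Notch ligand gene, held 2 of the 4 untreated peaks of 20p12.2, MPPED2 2 of those of 11p14, and AGPAT4 1 of those of 6q26. Leaving out either untreated list ended all 3 calls.

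The comparisons without HU gave no call among the 98 bands by limma-voom. Between APH and untreated 0.194% of all regions were called and 12 bands had an unadjusted p under 0.05, while the fit with an intensity trend called 2 bands and a prior count in proportion to the list 1. Between MMS and untreated 0.194% of all regions were called and 22 bands had an unadjusted p under 0.05, while the trend called 1 band and a minimum of 1 expected peak in the smallest list 1. Between APH and MMS 0% of all regions were called and 16 bands had an unadjusted p under 0.05, while the trend called 1 band.

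**Figure D5:**
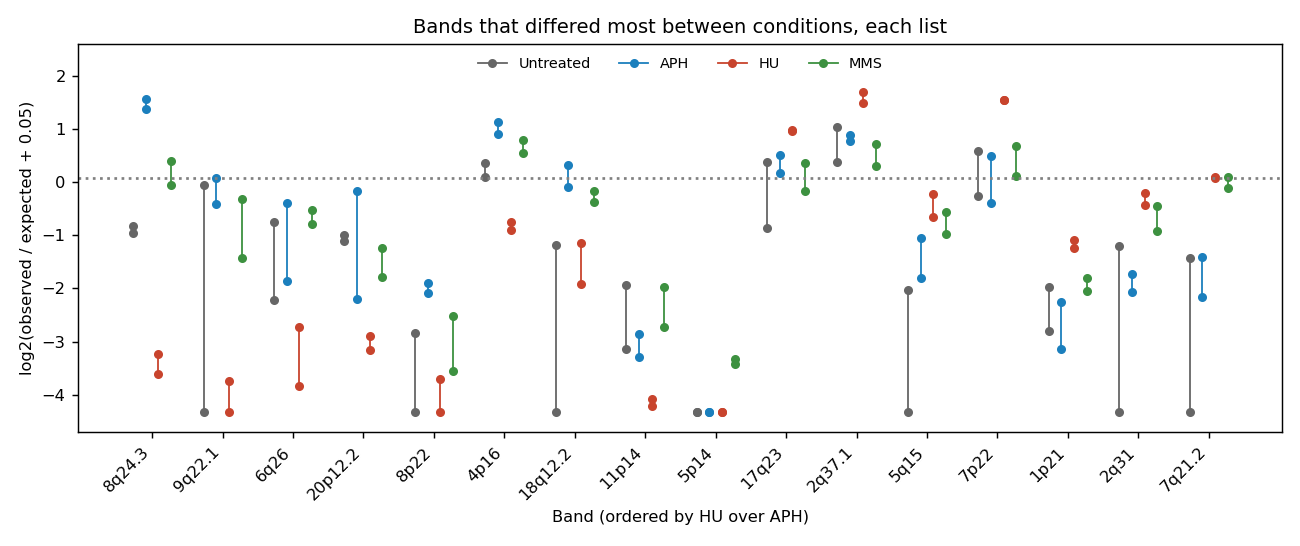
Ratio of observed to expected peaks, as log2(ratio + 0.05), in each list for the bands with the largest called changes or rank changes, ordered by HU over APH. Points are lists, lines join the 2 lists of a condition, and the dotted line marks a ratio of 1. HU lies below APH from 8q24.3 to 11p14 and above APH from 17q23 to 7q21.2, and the untreated lists are often far apart.

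Genes known for fragility held few peaks. Of 30 such genes on a list drawn from general knowledge of CFSs, 19 lay with at least 50% of their length in a band. The median ratio over these genes was 0 untreated, 0 after APH, 0 after HU and 0.119 after MMS, while their bands had medians of 0.154, 0.365, 0.216 and 0.362. No peak was found in either list in 12 genes untreated, 11 after APH, 14 after HU and 7 after MMS. The share of other genes without a peak was not taken. In HU replicate 2 the expected number ran from 0.918 in CAV1 to 47.0 in CTNNA3. The untreated, APH and MMS lists are far shorter, so a count of 0 there says little about a single gene. The gene ratio was above that of its own band in 4 of the 19 genes untreated, 3 after APH, 4 after HU and 6 after MMS.

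CCSER1 in 4q22 had no HU peak where 42.8 and 37.5 were expected, which with 3 peaks as a limit allows a ratio of up to 0.0373. CTNNA3, an alpha-catenin gene in 10q21, had 1 peak in untreated replicate 2, 1 in MMS replicate 2 and none after HU, where 53.7 and 47.0 were expected. DPYD, a pyrimidine-degrading enzyme gene in 1p21, had 1 APH peak and none elsewhere. ARHGAP15 in 2q22.3, a GTPase-activating protein gene, had 5 and 4 HU peaks, counted over the whole gene. BACH2, a B-cell transcription factor gene in 6q15, had 3 and 2 APH peaks, 0 and 2 MMS peaks and none in the other lists, a ratio of 1.16 ± 0.14 after APH (SD, n = 2). BCL2, the antiapoptotic gene in 18q21.3, was the only one of the 19 with a mean ratio over 1 in every condition, with 1 and 1, 0 and 5, 8 and 7, and 1 and 1 peaks. Its APH lists differed as much as its mean, 2.50 ± 3.54, and its HU ratio was 1.40 ± 0.00025.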

How the data were processed

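γH2AX ChIP-seq was analysed in 8 lists of peaks, 2 for each of 4 conditions. Per the study's methods, the authors trimmed the reads and aligned them with Bowtie2 (GRCh38). They checked read quality with SAMtools, left out PCR duplicates and poorly mapped reads, and ran MACS2 in its broad mode on each replicate against input. Blacklisted regions were removed as well. Versions are not given in the sources used here, and the input was not analysed here. The deposited columns hold a score, the fold enrichment (a ratio of ChIP to control), and the −log10 of the p-value and of the q-value. The score was not used. The lowest −log10 p in a list was 3.00 to 3.01.

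Peaks overlapping a band by at least 1 bp were counted, and the expected number was the band's share of assembled autosomal bases times the list's autosomal peaks. The rest of the autosomes was cut into 5 Mb windows. Peak numbers per region were tested with limma 3.58.1 (voom, all 8 lists, library size the autosomal peaks) in R 4.3.3, after a test on simulated data. Pooled values were tested by exact permutation with SciPy 1.17.1 in Python 3.11.15. Gene positions came from GENCODE release 44. The study's methods describe the 2 lists of a condition as independent treatments and ChIP experiments. The p-values of limma-voom measure the spread between them. The exact tests run over lists of different conditions, so their p-values also take in the spread between conditions. Alternatives are given with the limits.

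Named bands were the 3 highest and 3 lowest of each condition, up to 3 called bands per direction and comparison with the largest log2 change, and the 3 largest rank changes. Named genes held the most peaks in such a band over both lists of the condition where the band was highest or called higher. Their counts are thus no separate evidence for the difference. Other named genes were on a list of 30 fragile site genes, with at least 50% of the gene in a band. That limit was set after seeing the data, and the other 11 genes were left out. The bands and lists were chosen with earlier results of these data known. The model was fitted as planned. The requirement of more than 3 peaks for a call was added after simulated data and the first calls were seen, and a minimum of 1 expected peak, also tried then, was kept as an alternative. Some sequences and genes are not reported here.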

Additional observations from a re-analysis of the deposited data

How the results depend on the processing

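Peak lists carry no reads, so depth limits every ratio to an unknown degree, and untreated bands hold few peaks. Calls that involve few peaks depended on how low counts were handled. The causes of the changes below were not tested, except that a higher fold limit leaves fewer peaks.

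The pooled ratio, 0.792 untreated, 0.915 under APH, 1.07 under HU and 1.00 under MMS, became 1.06, 1.04, 1.08 and 1.08 with the expectation from peaks outside the terminal 5 Mb, which turned APH minus untreated to -0.0182. It became 0.414, 0.669, 1.06 and 0.931 for peaks of a fold of 3 or more, 0.529, 0.774, 1.06 and 0.980 for bases covered, and 0.747, 0.871, 1.05 and 0.968 without the terminal 10 Mb. The stronger 50% of peaks gave 0.651 untreated, 0.863 for APH and 0.982 for MMS, the expectation within each chromosome 0.854, 0.943 and 1.03, and unassembled bases 0.927 for APH and 1.09 for HU. The bands against the rest gave a log2 of 0.076 with a fold of at least 3.

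Bands called between HU and untreated, 13, were 21 with 2 Mb windows, 32 with a fold of at least 3 (5 higher and 27 lower, against 5 and 8) and 3 with a prior count in proportion to the list. Between HU and APH, 49 became 19 with the intensity trend, 15 with a fold of at least 3 and 29 with the prior in proportion, and between HU and MMS, 36 became 16, 15 and 21. Between APH and untreated 0 became 2 with the trend, 2 with 2 Mb windows and 1 with the prior in proportion. Between MMS and untreated it was 1 with the trend and 1 with a minimum of 1 expected peak, and between APH and MMS 1 with the trend and 1 with a fold of at least 3. Without a replicate the calls ranged from 0 to 24 between HU and untreated, 26 to 51 between HU and APH and 16 to 39 between HU and MMS. With the replicate block, 7 bands were called between HU and untreated. The numbers do not pair the samples, since the deviations of same-numbered lists correlated from -0.47 to 0.36.

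The Spearman correlation of replicates, with a fold of at least 3, was 0.37 untreated, 0.41 for APH, 0.97 for HU and 0.33 for MMS, and over all bands of at least 1 Mb 0.92 for MMS. With a fold of at least 3, the correlation between conditions was 0.52 (untreated and APH), 0.48 (untreated and HU), 0.37 (untreated and MMS), 0.72 (APH and HU), 0.66 (APH and MMS) and 0.80 (HU and MMS). Over all bands of at least 1 Mb it was 0.90 (untreated and APH), 0.79 (APH and HU), 0.92 (APH and MMS) and 0.89 (HU and MMS), and within each chromosome 0.84 (untreated and HU) and 0.89 (HU and MMS). Without a replicate it ranged from 0.876 to 0.913 (untreated and APH), 0.822 to 0.880 (untreated and HU), 0.874 to 0.907 (untreated and MMS), 0.821 to 0.863 (APH and HU), 0.945 to 0.952 (APH and MMS) and 0.890 to 0.909 (HU and MMS). Peaks found in the other replicate were 2.50%, 3.18%, 29.1% and 2.52% (untreated, APH, HU, MMS) for an overlap of 50% of the width, 7.46%, 10.9%, 59.7% and 7.32% within 1 kb, and 0%, 2.29%, 21.4% and 0.767% with a fold of at least 3.

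Of 18 named calls 1, that of 2q37.1 between HU and MMS, held under every alternative run. Of 304 values of named bands under an alternative, 234 kept direction and side of the threshold, 66 lost the call and 4 reversed, all with a fold of at least 3, to a log2 of -0.24 in 2q31, -2.56 in 5q15 and -2.46 in 7q21.2 between HU and untreated and -0.81 in 7q21.2 between HU and APH.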
